A study of Mus musculus with 8 samples.

Results

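The 42 genes described here encode enzymes of fatty acid oxidation in mitochondria and peroxisomes, enzymes that interconvert and use ketone bodies, and a small set of proteins for fatty acid uptake, lipid storage and fuel choice. They were picked by gene symbol and function from the 34745 genes of the deposited expression table, with earlier results of these data known, and all 42 had enough counts to be tested. The table comes from sequencing of messenger RNA from kidneys of wild-type (WT) mice at day 14, in 3 groups: sham (n = 2), uIRI (n = 3) and uIRI+MSC (n = 3). Sham kidneys are the controls, uIRI is a common short form of unilateral ischaemia-reperfusion injury, and MSC of mesenchymal stem cells, which were transplanted in addition to uIRI. Neither abbreviation is spelled out in the labels, which also give no strain, age, sex or duration of the injury, and no source, dose, route or timing of the cells. Since it is not stated either whether each library is its own animal, p-values measure only the spread between these samples. Because the uIRI+MSC group differs from uIRI by the transplantation alone as labelled, with no group given a vehicle or other cells, effects of the cells and of the procedure cannot be told apart.

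Fatty acids are the main fuel of proximal tubule cells, whose reabsorption of filtrate costs much energy. A fatty acid is first activated to its coenzyme A (CoA) thioester, and long chains then enter mitochondria through the carnitine shuttle. Each turn of beta-oxidation runs through a dehydrogenase, a hydratase, a second dehydrogenase and a thiolase, with electrons passed on by electron transfer flavoprotein. Peroxisomes shorten very long, branched and dicarboxylic chains by a parallel route, and ketone bodies are taken up and cleaved to acetyl-CoA in mitochondria. Many of these genes are known targets of PPARα, a lipid-sensing nuclear receptor that binds direct repeats of a hexamer with 1 base between them.

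Since the 42 genes largely moved together, their upstream regions were searched for motifs of the factors known to act on such genes. RefSeq gave 40 start sites on GRCm38.p6 for 36 of the 42 (all but Angptl4, Acat1, Crat, Acaa2, Hsd17b4 and Decr1), and the 250 bases before each start were read on both strands. A match at any start of a gene counted, and which start these kidneys used is not known. The direct repeat, searched as a pair of AGGTCA hexamers in the same direction with 1 base of any kind between them, with up to 2 mismatches, occurred upstream of 4 of the 36 genes (11.1%), namely Plin2, Cd36, Echs1 and Etfa, and upstream of 3.31% of the 11866 tested genes with an entry. The extended half-site TNAAGGTCA of the estrogen-related receptors occurred in 0 of 36 and in 0.902% of genes, and the CCAAT box in 20 of 36 (55.6%) and in 39.6% of genes. The 4 stretches with a match to the direct repeat are shown because they resemble a textbook site of a factor in this pathway, each with 2 mismatches. They are written 5′ to 3′ on the strand of the gene with the match in capitals. In Echs1 the repeat reads on the strand of the gene. In Plin2, Cd36 and Etfa it reads on the opposite strand, so the capitals there are its reverse complement.
Plin2, chr4:86670252-86670304, minus strand: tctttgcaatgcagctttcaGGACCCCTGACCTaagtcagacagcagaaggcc
Cd36, chr5:17835927-17835979, minus strand: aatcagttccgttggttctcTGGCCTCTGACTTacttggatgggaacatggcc
Echs1, chr7:140116472-140116524, minus strand: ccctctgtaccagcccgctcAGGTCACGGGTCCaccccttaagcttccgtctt
Etfa, chr9:55512288-55512340, minus strand: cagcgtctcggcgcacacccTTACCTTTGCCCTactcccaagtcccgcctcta
The capitals end 213 bases before the start in Plin2, 51 in Cd36, 71 in Echs1 and 65 in Etfa. The Cd36 stretch lies inside the span of the gene in the deposited table (chr5:17781690-17888801), before a start within it. A match is a resemblance of letters and does not show binding. Of the 4 genes with a direct repeat, Cd36, Echs1 and Etfa were lower in uIRI than in sham by edgeR, and Plin2 did not pass the test.

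Depth ran from 11592986 to 24300112 counts per library. Values are given as CPM, counts per 1000000 after TMM scaling (a library factor that assumes most genes do not differ), and changes as log2 fold changes ± SE from edgeR's quasi-likelihood test, called at an adjusted p below 0.05 over 16576 tested genes. With library size alone in place of TMM, the median log2 change of all genes moves from 0.06 to 0.73 in the comparison of uIRI with sham, from -0.01 to -0.16 in that of uIRI+MSC with uIRI and from 0.03 to 0.55 in that of uIRI+MSC with sham, so every change below is relative to the TMM scaling. Markers of cell types moved with the groups. The summed level of 12 proximal tubule markers was 36308 to 49190 CPM in sham, 1821 to 6355 in uIRI (lowest in uIRI 1) and 8758 to 13183 in uIRI+MSC, and all 12 were lower in uIRI than in sham by edgeR, with none at 0. The sum of 9 macrophage markers was 225 to 267, 3213 to 4933 and 1835 to 2509 CPM, and that of 7 fibroblast markers 308 to 427, 3550 to 8382 and 2127 to 3895 CPM, in the same order, and all 9 and all 7 were higher in uIRI than in sham. Markers of the thick ascending limb, another tubule segment, had sums between 11150 and 13458 CPM in sham, between 2221 and 3524 in uIRI, and between 999 and 3083 in uIRI+MSC. Of these 5 markers 4 were lower in uIRI than in sham by edgeR, and the 5 estimates for uIRI+MSC against uIRI were below 0, with 0 called by edgeR, 1 at an unadjusted p below 0.05 and 1 called lower by DESeq2. The 6 adipocyte markers summed to at most 4.95 CPM, in uIRI+MSC 3, with Lep at 0 counts in every library and Adipoq and Plin1 at 0 in both sham libraries. Of all counts, transcripts of the mitochondrial genome took 14.2% in sham, 3.49 to 4.84% in uIRI, and among the libraries with transplanted cells 6.07% in replicate 1, 6.24% in replicate 2 and 11.3% in replicate 3. Fewer tubule cells and less RNA of a gene per cell cannot be told apart in whole tissue, and the part of these shifts in the results below was not tested.

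The comparison of uIRI with sham asks how the pathway differed in injured kidneys at day 14. Of the 42 genes, 41 fell, 0 rose and 1, Plin2, did not pass, where 26.3% of all tested genes were called lower and 28.3% higher. With library size alone in place of TMM the calls over all genes turned from 4361 lower and 4683 higher to 1989 lower and 9044 higher, and 40 of the 42 genes were lower. The median log2 change was -2.13, against 0.06 for all genes. On the log2 scale 40 of the 42 genes fell by at least 1, as did 15.2% of all genes. In 41 of the 42 genes every uIRI library lay below both sham libraries, as in 36.5% of all genes. By role the median log2 change was -3.28 for the 3 ketone enzymes, -2.82 for the 6 genes of fatty acid activation and thioesters, -2.40 for the 6 acyl-CoA dehydrogenases, -2.32 for the 10 peroxisomal enzymes, -1.95 for the 10 genes of the later mitochondrial steps and electron transfer, -1.77 for the 3 carnitine shuttle genes and -1.67 for the 4 genes of fuel choice, uptake and storage. Differences between these role groups were not tested.

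**Figure D1:**
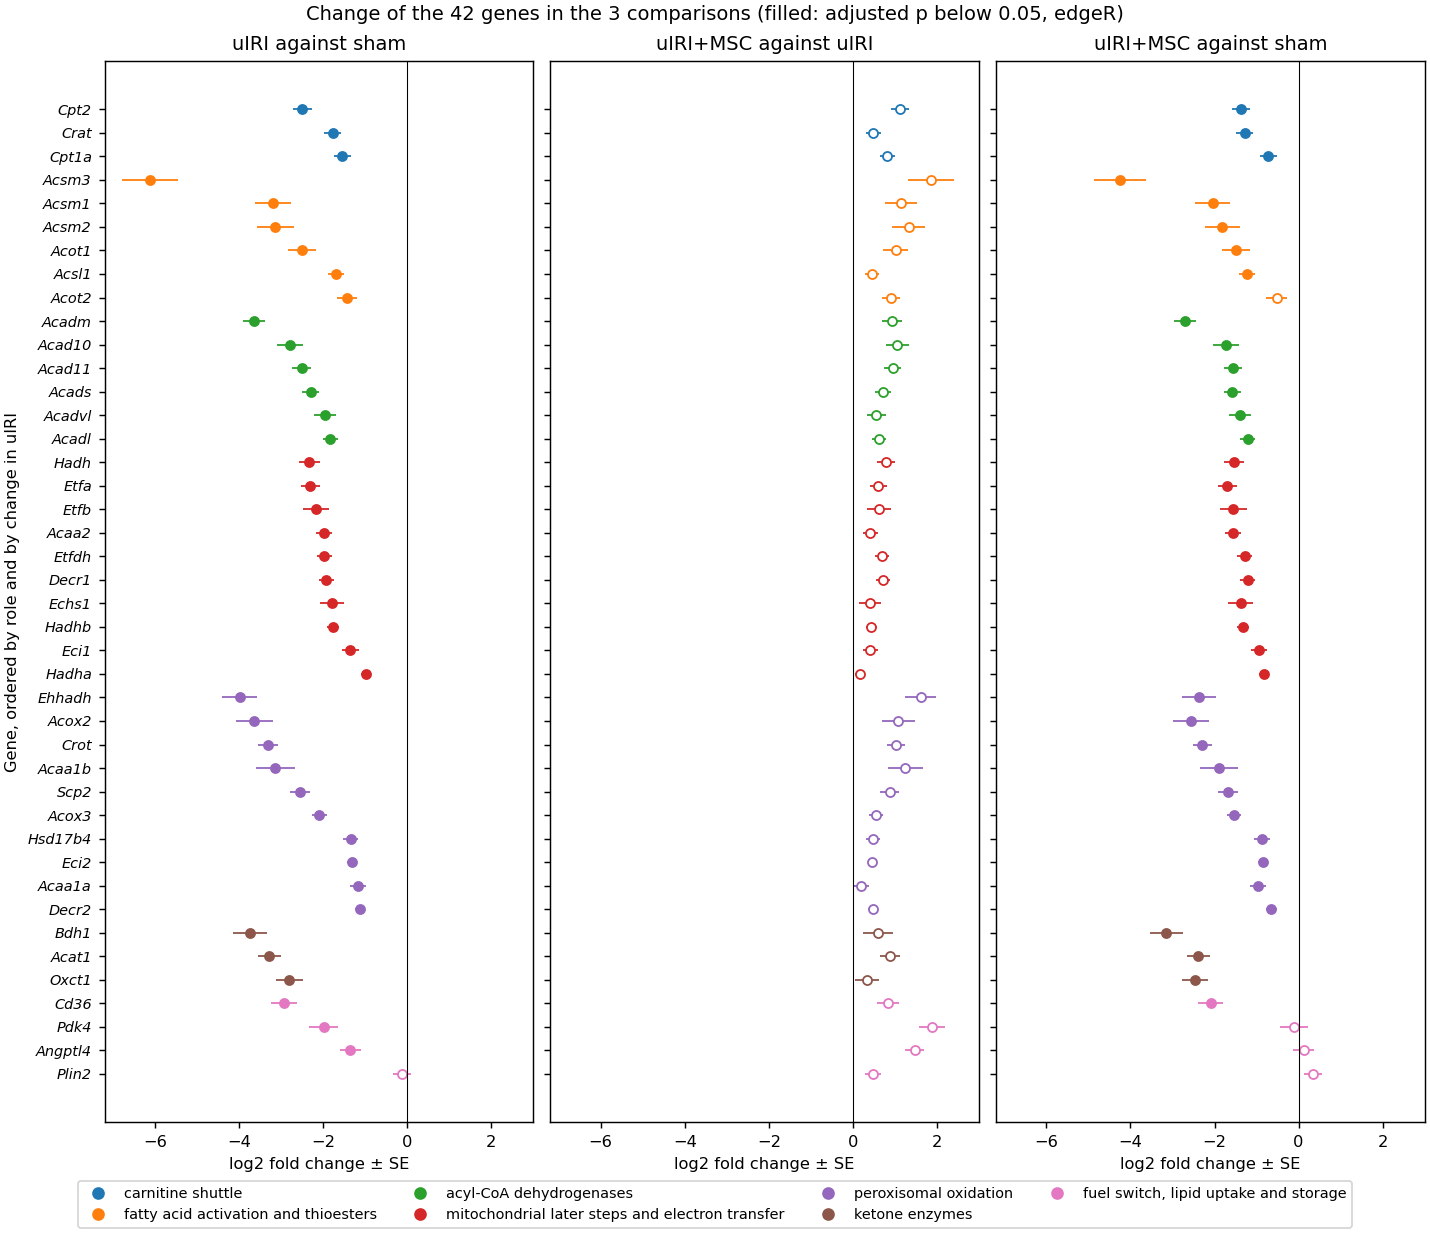
Log2 fold change ± SE of each of the 42 genes (rows, coloured by role) for uIRI relative to sham (left), uIRI+MSC relative to uIRI (middle) and uIRI+MSC relative to sham (right), with filled points where edgeR's adjusted p is below 0.05. In the first panel 41 points are filled and lie left of 0, in the middle panel all 42 are open and right of 0, and in the third 38 are filled and left of 0.

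The carnitine shuttle was lower at each of its 3 genes. Cpt2, the inner-membrane carnitine palmitoyltransferase, stood at 218 and 175 CPM in sham and at 25.4, 44.4 and 34.8 in uIRI 1, 2 and 3. It fell by 2.49 ± 0.23 (edgeR adjusted p = 7.23e-05). Cpt1a, the outer-membrane enzyme that sets the rate of entry (chr19:3323301-3385732), stood at 671 and 637 CPM in sham and at 173, 244 and 254 in uIRI. It fell by 1.55 ± 0.20 (edgeR adjusted p = 0.000344). The carnitine acetyltransferase gene Crat went from 226 and 206 CPM to 44.8, 70.7 and 74.8. It fell by 1.77 ± 0.20 (edgeR adjusted p = 0.000193). In each gene both sham libraries lay well above all 3 uIRI libraries, and uIRI 1 was the lowest.

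Among the activating enzymes the medium-chain acyl-CoA synthetase gene Acsm3 showed the largest change of the 42. It stood at 1666 and 1019 CPM in sham and at 12.6, 31.9 and 13.4 in uIRI. It fell by 6.12 ± 0.67, or 69.5-fold (edgeR adjusted p = 0.000154). Its neighbours on chromosome 7, Acsm1 and Acsm2, fell by 3.19 ± 0.43 and 3.14 ± 0.43. Exons of Acsm3 overlap those of Eri2 on the other strand by 1058 bases, and without stated strand their reads cannot be told apart. Eri2 averaged 10.85 CPM in sham and 10.65 in uIRI, far below Acsm3 in sham and near the lowest Acsm3 values in uIRI. The long-chain synthetase gene Acsl1 changed less, from 202 and 309.6 CPM to 70.8, 76.8 and 90.1. It fell by 1.69 ± 0.19 (edgeR adjusted p = 0.000169). Acot1 and Acot2 encode cytosolic and mitochondrial thioesterases, which release the free acid from its CoA, and they share 24.5% of the 50-base words of Acot2, so their counts may be mixed. Acot1 fell by 2.51 ± 0.33 and Acot2, at 44.3 and 43.6 CPM in sham and 12.4, 21.0 and 15.8 in uIRI, by 1.42 ± 0.24 (edgeR adjusted p = 0.00122).

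The 6 acyl-CoA dehydrogenases, which start each turn of the cycle on chains of different length, all fell. Acadm, for medium chains, stood at 1858 and 1302 CPM in sham and at 86.5, 151 and 139.9 in uIRI, and was 12.6-fold lower in uIRI (-3.65 ± 0.27, edgeR adjusted p = 3.38e-05). Acads, for short chains, went from 269.7 and 224 CPM to 38.0, 60.2 and 52.9. It fell by 2.29 ± 0.20 (edgeR adjusted p = 6.36e-05). Acadvl, for very long chains, went from 469.7 and 398 CPM to 80.3, 133 and 124. It fell by 1.95 ± 0.26 (edgeR adjusted p = 0.000348). No uIRI library reached a sham library in any of the 6. The long-chain enzyme gene Acadl fell by 1.83 ± 0.18, and Acad11 and Acad10, less studied members of the family, by 2.51 ± 0.22 and 2.78 ± 0.31. Acadvl shares 26.9% of its 50-base words with Dvl2, which overlaps it on the other strand. Dvl2 averaged 16.8 CPM in sham and 25.8 in uIRI. Acad10 shares 16.8% of its words with Acad12.

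The later mitochondrial steps changed over a narrower range, from -2.33 for Hadh to -0.98 for Hadha. Hadha and Hadhb encode the subunits of the trifunctional protein, which carries out the last 3 steps on long chains, and lie next to each other on chromosome 5 in opposite directions. Hadhb stood at 47.0 and 46.4 CPM in sham and at 13.1, 14.4 and 13.9 in uIRI. It fell by 1.76 ± 0.14 (edgeR adjusted p = 4.76e-05). Hadha, given in every library after its values were seen because it is the partner of Hadhb, stood at 304 and 311 CPM in sham and at 148, 165 and 155 in uIRI. It fell by 0.98 ± 0.12 (edgeR adjusted p = 0.000256). Libraries of both genes were tightly grouped, without overlap between sham and uIRI. Hadhb shares 18.1% of its 50-base words with the predicted gene Gm13910, which has no row of that name in the deposited table. Whether part of the reads of Hadhb was lost in counting is not known. The dienoyl-CoA reductase gene Decr1, needed for unsaturated chains, went from 305 and 243 CPM to 58.5, 82.1 and 75.2. It fell by 1.93 ± 0.18 (edgeR adjusted p = 7.35e-05). The enoyl-CoA hydratase gene Echs1 had the widest sham spread of the group, 329 and 204 CPM, and stood at 51.6, 89.5 and 89.5 in uIRI. It fell by 1.80 ± 0.29 (edgeR adjusted p = 0.000967). The short-chain hydroxyacyl-CoA dehydrogenase gene Hadh fell by 2.33 ± 0.25, the thiolase gene Acaa2 by 1.98 ± 0.20 and the isomerase gene Eci1 by 1.35 ± 0.19. Of the electron carriers, Etfa fell by 2.30 ± 0.22, Etfb by 2.17 ± 0.32 and their membrane dehydrogenase gene Etfdh by 1.97 ± 0.18. Of the 50-base words of Etfb, 43.8% are shared with the predicted gene Gm45233, which likewise has no row of its name.

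The peroxisomal genes spread more widely, from -3.98 to -1.13. Ehhadh, the bifunctional hydratase and dehydrogenase that acts on dicarboxylic chains (chr16:21761287-21787844), fell most. It stood at 1732 and 1423 CPM in sham and at 45.9, 140.2 and 113 in uIRI. It fell by 3.98 ± 0.42, or 15.8-fold (edgeR adjusted p = 0.000126). Its values by library were chosen after they were seen. The carnitine octanoyltransferase gene Crot, which prepares shortened chains for export to mitochondria, went from 1128 and 737 CPM to 76.5, 109 and 95.9. It fell by 3.31 ± 0.24 (edgeR adjusted p = 3.14e-05). Acox3, an oxidase of branched chains, went from 490.4 and 387 CPM to 92.2, 109 and 108. It fell by 2.09 ± 0.18 (edgeR adjusted p = 5.47e-05). The thiolase genes Acaa1a and Acaa1b are near copies of each other. Acaa1a went from 186 and 202 CPM to 74.1, 89.0 and 97.0 and fell by 1.16 ± 0.20 (edgeR adjusted p = 0.00119), and Acaa1b fell by 3.14 ± 0.46. However, 30.5% of the 50-base words of Acaa1b also occur in Acaa1a, so the split between them is uncertain. Acox2, an oxidase of bile acid precursors and branched chains, fell by 3.64 ± 0.44 and Scp2, a sterol carrier and thiolase, by 2.55 ± 0.25. Scp2 shares 29.7% of its 50-base words with the pseudogene Scp2-ps2, so their counts may be mixed. Scp2-ps2 averaged 224.6 CPM in sham and 46.0 in uIRI, beside 762 and 130 for Scp2. Besides that of Acaa1a, the smallest falls were those of the D-specific bifunctional enzyme gene Hsd17b4 (1.35 ± 0.19), the isomerase gene Eci2 (1.32 ± 0.13) and the dienoyl-CoA reductase gene Decr2 (1.13 ± 0.13).

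All 3 ketone enzymes fell by more than 2.5 on the log2 scale. Bdh1, which interconverts acetoacetate and beta-hydroxybutyrate, stood at 376 and 228 CPM in sham and at 14.6, 31.6 and 21.2 in uIRI. It fell by 3.75 ± 0.40 (edgeR adjusted p = 0.000137). Acat1, the mitochondrial thiolase that splits acetoacetyl-CoA, went from 1536 and 1139 CPM to 91.7, 179 and 143. It fell by 3.28 ± 0.28 (edgeR adjusted p = 5.51e-05). Oxct1, whose product loads CoA onto acetoacetate and so commits it to oxidation (chr15:4026383-4155344), went from 1494 and 1419.7 CPM to 126, 195 and 305. It fell by 2.80 ± 0.32 (edgeR adjusted p = 0.000177). The highest uIRI library of each gene was far below the lower sham library.

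Of the remaining 4 genes, Cd36, a long-chain fatty acid transporter, stood at 754 and 440.2 CPM in sham and at 86.9, 77.3 and 70.6 in uIRI. It fell by 2.93 ± 0.30 (edgeR adjusted p = 0.000114). The vessel wall also expresses Cd36, and the summed endothelial markers were 413 to 484 CPM in sham and 429.7 to 475 in uIRI. Single endothelial markers changed by -0.54 (Kdr) to 0.51 (Cdh5). Of these 6 markers edgeR and DESeq2 each called 1 lower and 0 higher, where edgeR called 26.3% of all tested genes lower and 28.3% higher. The part of any cell type in the change of Cd36 was not tested. Pdk4, the kinase that shuts off pyruvate dehydrogenase and so favours fat over glucose (chr6:5483351-5496309), stood at 72.2 and 46.9 CPM in sham and at 15.3, 13.9 and 15.9 in uIRI. It fell by 1.99 ± 0.34 (edgeR adjusted p = 0.00123). Angptl4, a secreted inhibitor of lipoprotein lipase (chr17:33773750-33781575), stood at 74.4 and 61.6 CPM in sham and at 28.3, 28.1 and 23.4 in uIRI. It fell by 1.35 ± 0.25 (edgeR adjusted p = 0.00184). Its values by library were also chosen after they were seen. For these 3 genes no uIRI library overlapped sham. Plin2, a coat protein of lipid droplets (chr4:86648386-86670060), stood at 131 and 99.2 CPM in sham and at 95.2, 108 and 114 in uIRI, with overlapping libraries and a log2 change of -0.13 ± 0.21 (edgeR adjusted p = 0.642). With library size alone its change was 0.55 ± 0.21 (edgeR adjusted p = 0.0458), so the direction for Plin2 rests on the scaling.

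**Figure D2:**
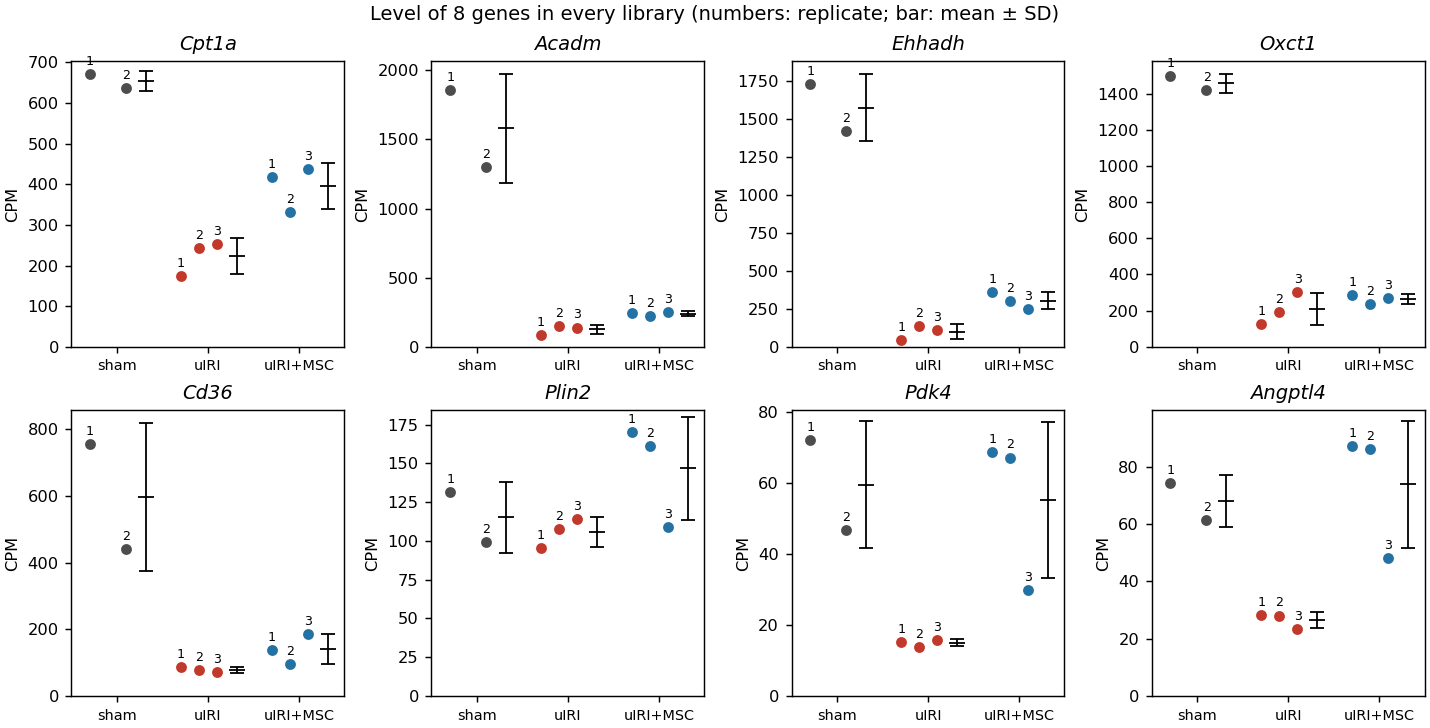
CPM (linear axis from 0) of 8 genes in every library by group, with replicate numbers and, beside the points, the mean ± SD. Cpt1a, Acadm, Ehhadh, Oxct1 and Cd36 lie highest in both sham libraries, whereas for Pdk4 and Angptl4 the uIRI+MSC libraries 1 and 2 lie within or above the sham range and uIRI+MSC 3 lies lower.

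The comparison of uIRI+MSC with uIRI asks how the kidneys given cells differed from the injured ones without cells. edgeR called 0 of the 42 genes and 0 of all 16576 (0% in either direction), and limma-voom also called 0. All 42 estimates were above 0, as were 49.0% of those of all genes, and their median was 0.72, against -0.01 for all genes. At an unadjusted p below 0.05 there were 36 of the 42, all higher, beside 3418 of all genes (20.6%, and 11.3% higher). In 33 of the 42 all uIRI+MSC libraries lay above all uIRI libraries, as in 14.1% of all genes. The exceptions with overlapping libraries were Acsm3, Acadvl, Echs1, Acaa2, Etfb, Acaa1a, Bdh1, Oxct1 and Plin2. DESeq2, which sets its variance differently, called 26 of the 42 higher and 0 lower, against 4.79% of all genes called higher and 3.44% lower. The call therefore depends on the tool, and edgeR's own adjusted p of the 42 started at 0.111. This comparison shares the uIRI libraries with the one before it, so a low uIRI library lowers one and raises the other. The member median was 0.56 without uIRI 1, the library with the lowest sum of proximal tubule markers.

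Pdk4 and Angptl4 had the smallest p-values of the 42. Pdk4 stood at 68.7, 67.3 and 29.8 CPM in uIRI+MSC 1, 2 and 3, against 13.9 to 15.9 in uIRI, a log2 difference of 1.88 ± 0.31 (adjusted p = 0.111 by edgeR, adjusted p = 1.03e-05 by DESeq2). Angptl4 stood at 87.2, 86.3 and 48.2 CPM, against 23.4 to 28.3 in uIRI, a log2 difference of 1.48 ± 0.23 (adjusted p = 0.111 by edgeR, adjusted p = 1.13e-05 by DESeq2). In both genes each uIRI+MSC library was above each uIRI library, and uIRI+MSC 3 was the lowest of its group. Without uIRI+MSC 3 edgeR called 2 genes in the whole table, and they were Pdk4 (2.19 ± 0.18) and Angptl4 (1.72 ± 0.13), both with an adjusted p of 0.0362. That library also stands apart by its share of mitochondrial transcripts and its adipocyte markers, given above.

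The other estimates were largest for Acsm3 (1.87 ± 0.55), from overlapping levels of 85.4, 24.5 and 101 CPM, for Ehhadh (1.61 ± 0.37), at 359.9, 304 and 252 CPM, for Acsm2 (1.33 ± 0.39), and for Acaa1b (1.25 ± 0.41). In the carnitine shuttle Cpt2 stood at 83.4, 67.5 and 77.0 CPM (1.12 ± 0.21) and Cpt1a at 418, 331 and 437 (0.82 ± 0.18), each above every uIRI library, with an adjusted p of 0.111 by edgeR for both. Crat stood at 87.4, 87.3 and 92.1 CPM, a difference of 0.49 ± 0.19. For Acadm the uIRI+MSC libraries stood at 247, 222 and 254 CPM (0.94 ± 0.23), for Acads at 92.7, 75.4 and 80.8 (0.72 ± 0.18) and for Acadvl at 198, 174 and 124 (0.56 ± 0.23), the last with uIRI+MSC 3 inside the uIRI range. Crot stood at 191, 165 and 215 CPM (1.02 ± 0.21) and Acox3 at 167, 126 and 159.8 (0.55 ± 0.16), both above uIRI throughout. Among the smallest estimates, Hadha differed by 0.17 ± 0.11, Acaa1a, at 96.1, 123 and 79.4 CPM, by 0.20 ± 0.18, and Echs1, at 95.0, 124 and 88.5 CPM, by 0.42 ± 0.26.

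For the ketone enzymes the picture was uneven. Acat1 stood at 275, 232 and 259.5 CPM, above every uIRI library, with a difference of 0.89 ± 0.24. Oxct1 stood at 287, 234 and 272 CPM, within the uIRI range of 126 to 305 (0.34 ± 0.28, edgeR adjusted p = 0.528), and Bdh1 at 39.3, 20.6 and 41.9, overlapping 14.6 to 31.6 (0.59 ± 0.35, edgeR adjusted p = 0.375). DESeq2, which called 4.79% of all genes higher, called Acat1 of the 3. Of the peroxisomal genes it called 7 of 10, of the acyl-CoA dehydrogenases 5 of 6, of the activation and thioester genes 5 of 6, of the later mitochondrial steps 3 of 10, of the carnitine shuttle 2 of 3 and of the fuel and lipid genes 3 of 4. The median log2 difference by role was 1.16 for fuel and lipid genes, 1.09 for activation and thioesters, 0.83 for acyl-CoA dehydrogenases, 0.82 for the carnitine shuttle, 0.71 for peroxisomal oxidation, 0.59 for ketone enzymes and 0.52 for the later mitochondrial steps, and differences between roles were not tested. The 12 proximal tubule markers had a median of 1.22 in the same comparison, and 0 of them passed edgeR.

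**Figure D3:**
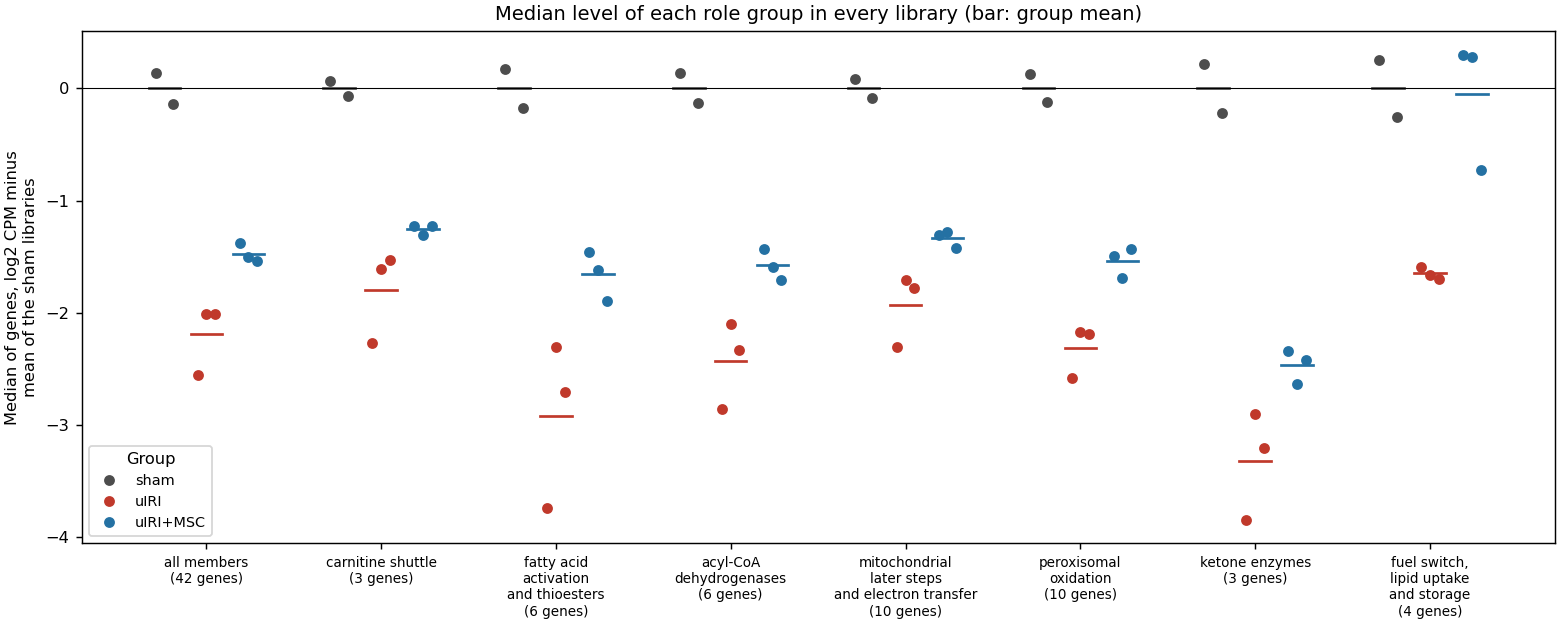
Median over the genes of a role of log2 CPM minus the mean of the sham libraries, 1 point per library, for all 42 genes and for each of 7 roles, with bars at the group means. For all 42 genes the uIRI libraries lie at -2.56, -2.01 and -2.02 and the uIRI+MSC libraries at -1.38, -1.51 and -1.54, while for the fuel and lipid genes uIRI+MSC 1 and 2 lie at 0.30 and 0.28 and uIRI+MSC 3 at -0.73.

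Set against sham, the uIRI+MSC kidneys were lower for most of the pathway. Of the 42 genes 38 were lower by edgeR, 0 higher and 4 did not pass (Acot2, Pdk4, Angptl4 and Plin2), where 20.3% of all genes were called lower and 22.1% higher. The median log2 change was -1.51, against 0.03 for all genes, and the libraries did not overlap in 39 genes, all lower, against 31.2% of all genes. In this comparison the 12 proximal tubule markers had a median of -1.71 and the 5 thick ascending limb markers of -2.16. By role the medians were -2.46 for ketone enzymes, -1.65 for activation and thioesters, -1.61 for peroxisomal oxidation, -1.57 for acyl-CoA dehydrogenases, -1.35 for the later mitochondrial steps, -1.28 for the carnitine shuttle and 0.01 for the fuel and lipid genes. The smallest p-values were those of Acadm (-2.71 ± 0.26, edgeR adjusted p = 0.000178), Crot (-2.29 ± 0.23, edgeR adjusted p = 0.000213), Hadhb, at 16.5, 20.9 and 18.6 CPM (-1.32 ± 0.14, edgeR adjusted p = 0.000276), and Acat1 (-2.39 ± 0.27, edgeR adjusted p = 0.000358). Acsm3 again had the most negative change, -4.25 ± 0.62, followed by Bdh1 at -3.15 ± 0.39. Cpt1a lay nearer to sham at -0.73 ± 0.20 (edgeR adjusted p = 0.0198), a call that was lost without uIRI+MSC 2 (-0.61, edgeR adjusted p = 0.0643), without sham 1 (-0.65, edgeR adjusted p = 0.121) and without sham 2 (-0.73, edgeR adjusted p = 0.0788). Without sham 1 the calls of Acsm2 (-1.62), Acot1 (-1.24), Echs1 (-0.96), Eci1 (-0.84), Hsd17b4 (-0.75) and Acaa1b (-1.80) were lost as well, which left 31 of the 42 genes lower.

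Among the 4 that did not pass, Pdk4 and Angptl4 differed from sham by -0.10 ± 0.34 (edgeR adjusted p = 0.824) and 0.12 ± 0.25 (edgeR adjusted p = 0.721), with overlapping libraries. Acot2 stood at 30.4, 37.2 and 24.2 CPM, all below sham, but its change of -0.52 ± 0.24 missed the threshold (edgeR adjusted p = 0.112). Plin2 stood at 170.3, 161 and 109 CPM, a change of 0.35 ± 0.22 (edgeR adjusted p = 0.222), and passed as higher without uIRI+MSC 3 (0.56 ± 0.17, edgeR adjusted p = 0.0322). With library size alone Pdk4 turned to 0.43 and Plin2 passed at 0.88 ± 0.21, while Cpt1a, Hadha, Eci1, Hsd17b4, Acaa1a and Decr2 no longer passed and 32 of the 42 genes were lower. Over all genes that scaling gave 1352 lower and 7400 higher, against 3358 and 3671 with TMM.

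Levels can be compared between genes only per length, here as the FPKM deposited with the counts, which are scaled to library size without TMM. In sham the highest levels among the 42 were those of Ehhadh (383 ± 31.0 FPKM, SD, n = 2), Acsm2 (302 ± 26.6), Acat1 (229.5 ± 35.1) and Oxct1 (226 ± 4.86), followed by Acadl (178 ± 13.1) and Acadm (176 ± 33.9). Acat1 and Oxct1, and likewise Acadl and Acadm, differed by less than their SDs. In uIRI the order was led by Acadl (79.6 ± 11.6, n = 3), Cpt1a (60.5 ± 9.92) and Acsm2 (53.9 ± 27.3), with Ehhadh at 38.1 ± 17.5. In uIRI+MSC it was led by Acsm2 (123 ± 12.8), Acadl (110.2 ± 3.86), Ehhadh (106 ± 20.03) and Cpt1a (96.4 ± 12.2), where neighbours in the order overlap within their SDs. Acsm3 went from place 10 of 42 in sham to place 41 in uIRI and place 36 in uIRI+MSC. Hadhb was lowest in all 3 groups, at 3.91 ± 0.19, 1.83 ± 0.01 and 2.23 ± 0.29 FPKM, while its partner Hadha stood at 21.1 ± 1.57, 17.0 ± 0.41 and 17.2 ± 0.64. Whether part of the reads of Hadhb was lost in counting is not known, so its place and the gap to Hadha are uncertain.

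Shares of the summed FPKM of the 42 genes do not depend on the scaling of a library. The sum was 3429 ± 300.4 FPKM in sham, 939 ± 203 in uIRI and 1476 ± 129 in uIRI+MSC. Ketone enzymes made up 14.3 ± 0.08% of it in sham, 9.76 ± 1.32% in uIRI and 8.63 ± 0.79% in uIRI+MSC, so both injured groups lay below sham and overlapped each other. Peroxisomal enzymes made up 26.2 ± 0.32%, 20.7 ± 0.67% and 23.4 ± 0.74%, without overlap between groups. The later mitochondrial steps moved the other way, from 19.6 ± 1.33% in sham to 28.6 ± 1.12% in uIRI and 23.9 ± 1.19% in uIRI+MSC, again without overlap. The carnitine shuttle held 4.43 ± 0.38%, 7.95 ± 0.49% and 8.09 ± 1.15%, and activation and thioesters 17.8 ± 0.71%, 11.1 ± 2.60% and 15.0 ± 0.30%. Shares are set by the few most abundant genes, so they describe the makeup of this RNA pool and not each enzyme.

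**Figure D4:**
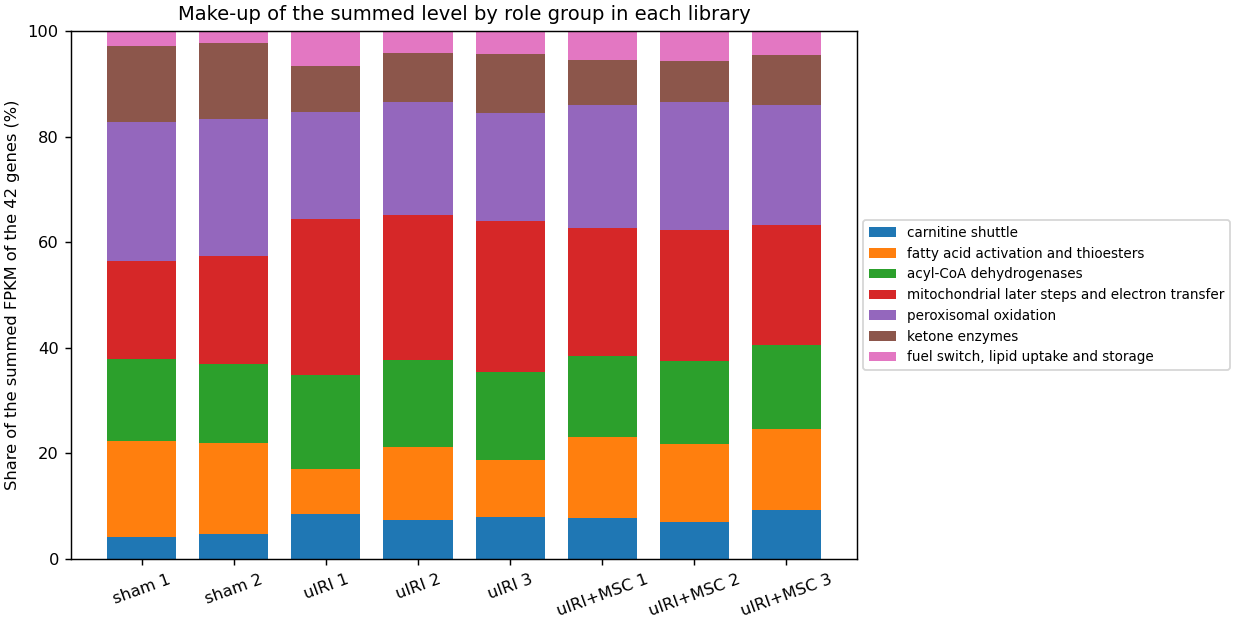
Share of the summed FPKM of the 42 genes (%, stacked bars to 100) taken by each of the 7 roles in each of the 8 libraries. The ketone band takes 14.3 to 14.4% in the sham libraries and 7.87 to 11.3% in the 6 others, while the band of later mitochondrial steps takes 18.7 to 20.6% in sham and 27.4 to 29.6% in uIRI.

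Other genes of the pathway were read from lists that leave out the 42. In uIRI against sham, edgeR called 26.3% of all tested genes lower and 28.3% higher. Of 20 other mitochondrial fatty acid genes 14 were lower in uIRI than in sham by edgeR, 4 higher and 2 did not pass (median -1.57). Examples are the dehydrogenase genes Acad12 (-2.55 ± 0.21) and Acad9 (-1.76 ± 0.16), the branched-chain enzyme gene Acad8 (-1.69 ± 0.17) and Hsd17b10 (-1.36 ± 0.14). The 4 higher ones, named after their values were seen, were Cpt1c, a form of Cpt1a known mainly from brain (2.65 ± 0.35), and the acyl-CoA synthetase genes Acsf2 (0.59 ± 0.19), Acsl5 (0.41 ± 0.13) and Acsl6. Acsl6 had 1 count in each sham library and 13, 9 and 11 in uIRI, too few for a fold change, and DESeq2 called 3 of these 4 genes higher. Those that did not pass were Acot9 (-0.06 ± 0.17) and Acsl4 (-0.14 ± 0.34). Of 25 other peroxisomal enzymes and transporters 22 were lower, 2 higher and 1 did not pass (median -2.24). Among the lower ones were the racemase gene Amacr (-3.68 ± 0.32), the transporter gene Abcd3 (-2.19 ± 0.19), the CoA diphosphatase gene Nudt19 (-3.68 ± 0.33) and the catalase gene Cat (-2.81 ± 0.28). Abcd2, a very-long-chain transporter gene named after its values were seen, was among the 2 higher ones (3.89 ± 0.51), and Baat (-0.49 ± 0.56) did not pass. Abcd2 had only 4 and 5 counts in sham, beside 269, 132 and 113 in uIRI, so the size of its change is uncertain. Of 16 peroxins, which build the organelle, 15 were lower and 1 did not pass, with a smaller median of -1.07, among them Pex11a (-1.88 ± 0.18), Pex7 (-1.83 ± 0.17) and Pex13 (-1.28 ± 0.17). Of 7 other ketone genes 6 were lower and the transporter gene Slc16a6 (-0.23 ± 0.14) did not pass (median -1.64), with Aacs at -2.80 ± 0.19, Bdh2 at -2.14 ± 0.36 and Acat2 at -1.64 ± 0.21.

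Of 17 tested genes for lipid uptake, droplets and pyruvate dehydrogenase kinases 10 were lower, 1 higher and 6 did not pass (median -0.67). The shares of all genes were 26.3% lower and 28.3% higher. Lpl, the lipoprotein lipase gene, was lower by edgeR (-2.55 ± 0.19), as were Dgat2, which makes triglyceride (-2.50 ± 0.33), and the kinase genes Pdk2 (-1.77 ± 0.24) and Pdk3 (-1.74 ± 0.19). In uIRI+MSC against uIRI these kinase genes differed by 0.65 ± 0.21 and 0.45 ± 0.18, beside 1.88 ± 0.31 for Pdk4. The 1 higher gene, named after its values were seen, was the fatty acid binding protein gene Fabp5, at 5.54 and 4.42 CPM in sham, 48.3, 16.0 and 24.6 in uIRI and 10.4, 8.58 and 5.79 in uIRI+MSC. Of 10 nuclear receptors, coactivators and partner factors 9 were lower and 1 higher (median -1.80), Pparg, the receptor of the family best known from fat cells (1.299 ± 0.29, named after its values were seen). Ppara, the gene of PPARα, stood at 45.2 and 47.6 CPM in sham, 5.59, 11.4 and 10.2 in uIRI and 21.6, 20.4 and 16.1 in uIRI+MSC. Its changes were -2.36 ± 0.28 in uIRI against sham, 1.10 ± 0.25 in uIRI+MSC against uIRI (adjusted p = 0.111 by edgeR) and -1.26 ± 0.27 in uIRI+MSC against sham. The transcription factor genes Klf15 (-3.09 ± 0.24) and Ppard (-1.84 ± 0.20), the latter of a receptor related to PPARα, were also lower in uIRI. In uIRI+MSC against uIRI edgeR called 0 genes of these 6 lists, whose medians were 0.96 for other peroxisomal genes, 0.74 for nuclear receptors, 0.46 for other ketone genes, 0.35 for other mitochondrial genes, 0.24 for peroxins and 0.19 for lipid uptake, droplets and kinases. At an unadjusted p below 0.05 there were, in that order of lists, 17, 6, 4, 5, 5 and 7 genes higher and 2, 0, 0, 1, 0 and 2 lower, where 20.6% of all genes passed in either direction. DESeq2 called 15, 5, 2, 1, 3 and 3 higher and, in the last list, 1 lower. Of all genes it called 4.79% higher and 3.44% lower, and the 1 of 20 other mitochondrial genes lies near that share. Against sham, edgeR called 21 of 25, 9 of 10, 5 of 7, 14 of 20, 15 of 16 and 6 of 17 lower in uIRI+MSC, and 2, 1, 0, 2, 0 and 0 higher, with medians of -1.29, -1.09, -1.21, -1.23, -0.85 and -0.33. Of all genes 20.3% were called lower and 22.1% higher in that comparison.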

How the data were processed

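RNA of 8 mouse kidney libraries was sequenced as messenger RNA. The authors deposited, per the file headers, a raw read count and an FPKM value per gene and library. Per the submitters' processing notes, which give no roles, the tools were HISAT2 2.0.4 and Bowtie2 2.2.6, StringTie 1.3.3b, edgeR 3.2.0, SAMtools 1.9 and FastQC 0.10.1, and the build GRCm38. Not given in the sources used here are the counting program, annotation release, strand and treatment of multi-mapped reads. Corrected for depth, the ratio of FPKM to count was constant across libraries to within 0.000572% for 9632 genes with at least 100 counts throughout.

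Counts were filtered with filterByExpr (minimum count 10), scaled by TMM and fitted with edgeR 4.0.16 under R 4.3.3 (quasi-likelihood F test, legacy=TRUE, 3 groups, 5 residual degrees of freedom), and p-values were adjusted by Benjamini and Hochberg over 16576 genes at 0.05. SE is the log2 change over the square root of F. Library levels on the log2 scale use a prior count of 2. On average over genes above a minimum count, replicates differed by 18.7 to 72.9 times the counting variance. That figure uses library totals without TMM, so differences in composition between libraries are part of it. Single genes with few counts can spread by no more than counting error.

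The 42 genes, their roles and the lists were chosen with earlier results of these data known. Values by library are given for the 2 smallest and the largest p per role in uIRI against sham and the 4 smallest in uIRI+MSC against sham, and up to 4 genes are named per list; some listed genes and 1 motif are not reported here. Shared 50-base words were counted in the reference transcripts on either strand, and promoters come from RefSeq, GRCm38.p6. Alternatives were DESeq2 1.42.0, limma-voom (limma 3.58.1), robust dispersion, legacy=FALSE (chosen after seeing the data), median-of-ratios factors, library size alone, no filter, at least 50 counts in 2 libraries, only the 2 groups compared, a replicate block and leaving out each library. Python 3.11.15 with matplotlib 3.10.9 drew the figures.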

Additional observations from a re-analysis of the deposited data

How the results depend on the processing

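Of the 42 genes, 40 to 41 were lower in uIRI than in sham under every alternative, and 31 (without sham 1) to 38 in uIRI+MSC than in sham. For uIRI+MSC against uIRI, DESeq2 called 26 of the 42 higher and 1364 genes in all, and leaving out 1 library gave 0 to 2 of the 42 and 0 to 8 of all genes, with 8 without uIRI 1, 3 without uIRI 3 and 2 each without uIRI+MSC 1 and uIRI+MSC 3. All genes called in uIRI+MSC against sham ranged from 3938 (without sham 1) to 6914 on leaving out 1 library, beside 7029. In the 2 comparisons with sham, Plin2 was the one gene of the 42 called higher, 1 gene with library size alone in uIRI against sham (0.55) and 1 in uIRI+MSC against sham, where leaving out 1 library gave 0 to 1. Changes near 0 turned sign. On leaving out 1 library, Plin2 in uIRI against sham ranged from -0.29 to 0.11 (without sham 1), Pdk4 in uIRI+MSC against sham from -0.35 to 0.28 (without sham 1, and 0.23 without uIRI+MSC 3), and Angptl4 there from -0.014 (without uIRI+MSC 1, and -0.0020 without uIRI+MSC 2) to 0.39. Pdk4 in uIRI+MSC against sham was also 0.43 with library size alone and 0.022 with the replicate block. The cause of these shifts was not tested. A group left with 1 library borrows its spread from the others.

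The labels do not say whether replicate numbers pair the libraries. Deviations of same-numbered uIRI and uIRI+MSC libraries correlated at -0.05, 0.07 and -0.10, and those of differently numbered ones at -0.20 to 0.21. With so few libraries these values show no pairing by number but cannot exclude it. With the replicate block 41, 0 and 38 of the 42 genes passed in the 3 comparisons, as without it, and 7959, 0 and 5753 of all genes.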
